A study of Mus musculus with 6 samples.

Results

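The genes described here encode the subunits, assembly factors and regulators of the proteasome. They were taken from the deposited unfiltered table by name: every row whose symbol is Psm followed by a letter from a to g and a digit, with Psmb8 and Psmb9 left out. This gave 39 genes of the 13960 rows in the table, and all 39 were tested. Genes of the same families that had no row there (Psma3, Psmb11, Psmd1, Psmd5, Psmd7, Psmd14, Psme3 and Psmg1) were not analysed here. Psmc3ip matches by name alone, since it is known as a recombination factor and not as a proteasome part, and it is counted among the 39.

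RNA came from the spinal cord injury site of mice after a contusion at T8. The animals are labelled LysMCre:Rplfl/fl > CD45.1 chimeras, of strain CD45.1. In RiboTag material the Cre recombinase tags a ribosomal protein, so that tagged ribosomes and their mRNA can be precipitated. Injury sites were taken 3 days (n = 3) or 7 days (n = 3) after the contusion, with genotype and injury the same throughout, and no uninjured or unprecipitated sample was analysed here. LysM-Cre is known to act in macrophages and also in monocytes and neutrophils, and untagged cells of the cord can contribute RNA that sticks during precipitation. In the usual notation for chimeras the donor is written first, in which case cells that the host keeps, such as microglia, carry no tag. The labels do not tie libraries to animals, so p-values measure only the spread between these libraries, which may be technical.

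The proteasome degrades proteins marked with ubiquitin. Its core particle is a barrel of alpha and beta rings, with the active sites on the inner faces of the beta subunits Psmb5, Psmb6 and Psmb7. The regulatory particle caps the barrel: ATPases in its base unfold the substrate, and its lid takes off the ubiquitin. Interferon is known to induce an alternative set of active subunits, Psmb10 among them, and the PA28 cap made of Psme1 and Psme2, which favours the making of peptides for MHC class I.

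Expression is given as FPKM, by its definition fragments scaled to transcript length and to the mapped fragments of the library. The scaling between libraries that was used is not given in the sources used here. Levels of different genes can be set side by side only with care. Some loci, such as those given for Psmb7, Psmc5, Psmg4 and Psme1, differ widely in length from the genes. The number of reads behind each value is unknown. Changes are differences of log2(FPKM + 1), 7 days minus 3 days, fitted with limma over 13042 genes, and a gene was called at a Benjamini-Hochberg adjusted p of 0.05 or less. In bulk RNA, fewer cells of a type and less RNA per cell cannot be told apart. The summed FPKM of marker genes of other cells moved between the times. All 7 oligodendrocyte markers tested were lower at 7 days, with sums from 310 to 623 FPKM at 3 days and from 132 to 158 FPKM at 7 days. All 7 neuron markers were lower (sums of 138 to 321 and 41.8 to 54.9 FPKM), as were all 4 erythroid markers (164 to 213 and 15.9 to 22.4 FPKM) and 5 of 6 astrocyte markers (199 to 567 and 95.8 to 119.7 FPKM). Of 6 inflammatory monocyte markers 4 were lower (448 to 531 and 181 to 235 FPKM) and 0 higher, and 3 of 4 microglia markers were higher (664 to 843 and 2062 to 2278 FPKM). Among 6 endothelial markers 5 were lower and 1 higher (26.4 to 56.04 and 16.3 to 20.4 FPKM), and 3 of 5 fibroblast and pericyte markers were lower (100.2 to 252 and 96.6 to 177 FPKM). Of 6 neutrophil markers, 1 was called higher (S100a8) and 1 lower (S100a9), with Mpo at 0 in all libraries at 7 days (48.3 to 53.2 and 31.2 to 49.02 FPKM). The log2 change was below 0 for 5 of these 6, with a median of -0.74. The 2 T and NK cell markers tested were not called (0.655 to 1.05 and 0.571 to 2.16 FPKM), and the 1 B cell marker was higher (0.631 to 1.32 and 2.84 to 3.48 FPKM). No marker other than Mpo was at 0 in all libraries of a time. Macrophage markers with a tested row, 6 in all, summed to between 1237 and 1414 FPKM at 3 days and between 1254 and 1285 FPKM at 7 days. Of these 6, 2 were higher (Csf1r and Mertk) and 2 lower (Cd14 and Fcgr1); Cd68, Adgre1, Mrc1 and Lyz2 had no row that could be tested. The part of these cells in the values below was not tested.

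Most proteasome genes were close to the same level at both times. Of the 39, 4 were higher at 7 days (Psmd8, Psmd10, Psma8 and Psma4), 5 were lower (Psmb5, Psmd11, Psmb10, Psmc5 and Psmd3) and 30 were not called. That is 23.1% called, beside 39.1% of all genes tested; among all genes, 18.8% were called higher and 20.3% lower. The 3 libraries of 1 time all lay above those of the other for 16 of the 39 genes, or 41.0%, beside 55.4% of all genes tested. The median size of the log2 change, in either direction, was 0.16 for the proteasome genes and 0.41 for all genes. Of the 6015 genes with a mean of at least 10 FPKM, 44.0% were called, 1902 of them higher and 746 lower. Their median size was 0.36, and 64.8% of them changed by less than 0.5. Their median signed log2 change was 0.20, so genes of such levels leaned upward, unlike all genes tested. A change smaller than 0.5 in log2 units was found for 34 of the 39 genes, or 87.2%, and for 58.7% of all genes. The median signed log2 change of the proteasome genes was 0.04, but it was -0.14 with quantile normalization and -0.01 with the libraries centred on their median gene. Over all genes tested it was -0.04, 0.05 and -0.09 in the same order. The proteasome median minus that of all genes was thus 0.08, -0.19 and 0.08. The same scalings gave 4 higher and 11 lower genes and 2 higher and 5 lower genes of the 39. Calls over all 13042 genes numbered 2317 up and 1809 down under the first scaling, and 2042 up and 2946 down under the second. With quantile normalization a larger share of the proteasome genes than of all genes was thus called. In the main fit and with centring it was a smaller share. Among the 39 genes, the number higher was 2 without 3-day replicate 2, 7-day replicate 1 or 7-day replicate 3. The number lower was 3 without 3-day replicate 2, 1 without 3-day replicate 3 and 2 when any single 7-day library was left out. Psmd8, Psmd10 and Psmd11 were called under all 13 other settings fitted.

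**Figure D1:**
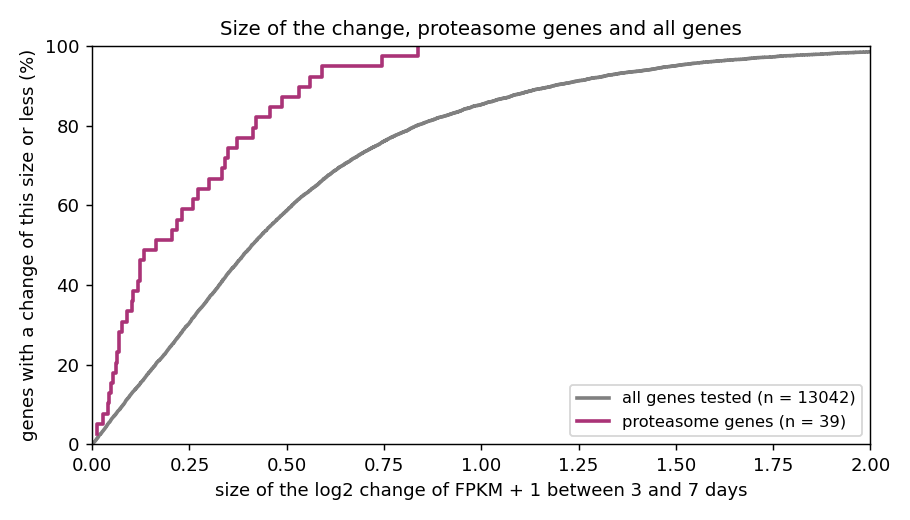
Cumulative share of genes (vertical axis, %) by the size of their log2 change of FPKM + 1 between 3 and 7 days (horizontal axis, drawn to 2), for the 39 proteasome genes and all 13042 genes tested. The curve of the proteasome genes lies to the left: 87.2% of them and 58.7% of all genes changed by less than 0.5.

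The level of the core particle relative to the regulatory particle was much alike at both times. Averaged over the 13 core subunits in the table, the mean level was 106.9, 122 and 129.7 FPKM in the 3-day libraries and 120.1, 129.1 and 129.1 FPKM in the 7-day libraries. Averaged over 13 regulatory subunits, leaving out Psmd2 (given below), it was 76.5, 79.7 and 86.1 FPKM at 3 days and 82.1, 85.9 and 87.6 FPKM at 7 days. The ratio of core to regulatory mean level was 1.40, 1.53 and 1.51 at 3 days and 1.46, 1.503 and 1.47 at 7 days. Its mean was 1.48 ± 0.0721 at 3 days and 1.48 ± 0.0212 at 7 days (SD, n = 3), so that the times differed by far less than the spread between libraries. In the core 1 subunit of 13 was higher and 1 lower, with a median log2 change of 0.04. In the regulatory particle 1 of 14 was higher and 3 were lower, with a median of -0.04. Quantile normalization gave the core 0 higher and 4 lower with a median of -0.16, and the regulatory particle 5 lower with a median of -0.24. Without 3-day replicate 1 the core's median was -0.12. All 39 genes together made up 0.926 ± 0.0568% of the summed FPKM of tested genes at 3 days and 0.885 ± 0.0131% at 7 days (SD, n = 3), and the times overlapped.

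**Figure D2:**
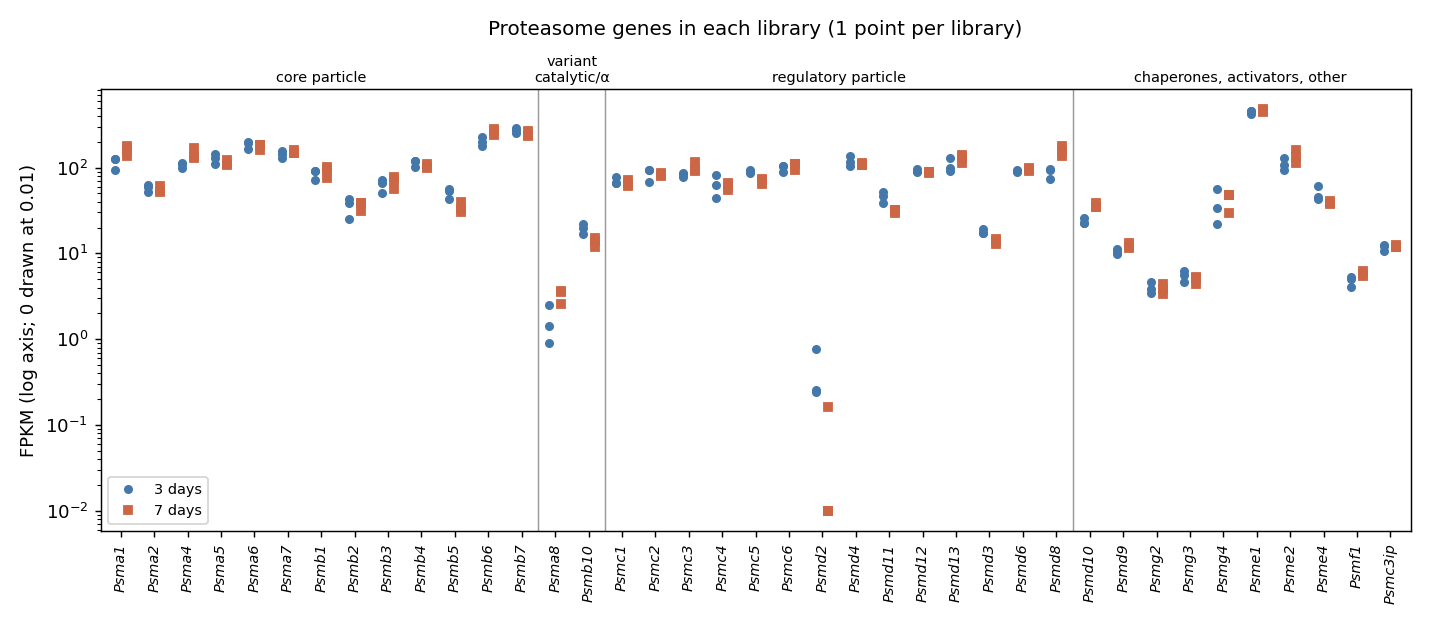
FPKM of each of the 39 genes (vertical axis, log scale, with values of 0 drawn at 0.01) in the 3 libraries at 3 days (circles) and the 3 at 7 days (squares), grouped by role. Most subunits of both particles lie between about 30 and 300 FPKM at both times, Psme1 is highest and Psmd2 lies below 1 FPKM.

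Subunits that stand in the particle in equal numbers were not listed at equal FPKM in this precipitated RNA, which is not the total mRNA of the cells. Mean levels in the core ran from 35.7 FPKM (Psmb2) to 270.3 FPKM (Psmb7) at 3 days, and from 34.3 FPKM (Psmb5) to 261 FPKM (Psmb6) at 7 days. The Psmb7 and Psmb5 values are uncertain, since parts of their sequence occur in other genes (given below). Both also enter the core means above. Among the 13 regulatory subunits other than Psmd2 they ran from 17.9 FPKM (Psmd3) to 119 FPKM (Psmd4) at 3 days and from 13.9 FPKM (Psmd3) to 157 FPKM (Psmd8) at 7 days. The order was much the same at both times, with a Spearman correlation of 0.919 between the mean levels across these 26 subunits, which share libraries and are not independent replicates. The coefficient of variation among core subunits within a library was 56.9 ± 6.03% at 3 days and 58.5 ± 2.46% at 7 days (SD, n = 3). Among regulatory subunits it was 34.5 ± 3.79% and 45.5 ± 3.30%, with the times not overlapping. Leaving out Psmd8, a choice made after its values were seen, gave 36.1 ± 3.83% and 42.1 ± 2.38%, and the times overlapped.

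Among the libraries of 3 days, replicate 1 held the lowest value for 26 of the 39 genes and replicate 3 the highest for 26. The summed FPKM of all genes tested was also lowest in replicate 1 and highest in replicate 3, at 332600, 338220 and 412890. The 39 genes made up 0.931, 0.980 and 0.867% of these sums. The median level over the 39 genes was 67.7, 81.6 and 86.7 FPKM at 3 days and 73.6, 72.5 and 78.7 FPKM at 7 days. The median over all genes tested was 7.98, 8.98 and 8.47 FPKM at 3 days and 7.82, 7.86 and 8.11 FPKM at 7 days. Psmc4, an ATPase of the base, was one of the genes with the lowest value in 3-day replicate 1, with 44.3, 81.6 and 63.3 FPKM at 3 days and 66.4, 61.7 and 54.3 FPKM at 7 days. Psmb2, a structural beta subunit, had 24.98, 43.3 and 38.9 FPKM at 3 days and 31.2, 38.5 and 38.2 FPKM at 7 days. For both genes the 7-day libraries lay within the range of the 3-day libraries.

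Of the 3 standard active subunits of the core, Psmb5 was lower at 7 days and the others were not called. Psmb5, which carries the chymotrypsin-like activity and is the main target of bortezomib, measured 43.1, 53.8 and 56.6 FPKM at 3 days and 30.7, 39.5 and 32.8 FPKM at 7 days. Every 7-day library was below every 3-day library, and Psmb5 fell with a log2 change of -0.56 ± 0.14 (SE; limma adjusted p = 0.0188), at mm10 chromosome 14, 54614031 to 54618020. The adjusted p by limma was 0.0585 with 3-day replicate 2 left out, 0.063 with 3-day replicate 3 left out, 0.0659 with 7-day replicate 1 left out and 0.0644 with 7-day replicate 3 left out. Psmb6, which carries the caspase-like activity, measured 178, 198 and 228 FPKM at 3 days and 238, 280.3 and 264 FPKM at 7 days. All 7-day libraries of Psmb6 were above all 3-day libraries, but its log2 change of 0.37 ± 0.13 (SE; limma adjusted p = 0.0527) just missed the threshold; in the authors' deposited table its q-value is 0.0273. Its limma adjusted p was 0.0489 among genes with a mean of at least 1 FPKM, 0.0477 in the authors' filtered table and 0.0382 with 3-day replicate 3 left out. It was 0.0758 with centring and 0.284 with quantile normalization, where the log2 change was 0.16, and up to 0.159 (without 7-day replicate 2) with other single libraries left out. Psmb7, with the trypsin-like activity, measured 272, 249.8 and 289 FPKM at 3 days and 239, 264 and 235 FPKM at 7 days, and the times overlapped (log2 change -0.13 ± 0.11, SE; limma adjusted p = 0.35). With quantile normalization its log2 change was -0.35 (limma adjusted p = 0.0294). The level of Psmb6 relative to Psmb5, a pair picked after their values were seen, was 4.14, 3.68 and 4.03 at 3 days and 7.74, 7.09 and 8.05 at 7 days. The mean of this ratio was 3.95 ± 0.242 at 3 days and 7.63 ± 0.488 at 7 days (SD, n = 3). Of the 50-base stretches of the Psmb5 transcript, 57.1% also occur in transcripts of other genes, mainly the gene Gm3375, so reads could be split between them and the Psmb5 value is uncertain. The locus given for Psmb7 also holds Nek6, with which it shares 28.1% of its stretches, so the Psmb7 value is uncertain too.

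The promoters of Psmb5 and Psmb6 are shown because the levels of these active subunits were compared above and both promoters hold the core of an antioxidant response element near their start. Nfe2l1 and Nfe2l2 are known to bind this element with small Maf partners, and Nfe2l1 is known to drive proteasome genes when the proteasome is inhibited. The letters TGACNNNGC were searched on both strands of the 300 bases around a gene's first listed start, 250 before and 50 after it, in RefSeq sequence of build GRCm38.p6. Capitals mark the match, and each line reads 5′ to 3′ on the strand of the match.
Psmb5, chr14:54618024-54618052, minus strand: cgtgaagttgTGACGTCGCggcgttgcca
Psmb6, chr11:70525338-70525366, plus strand: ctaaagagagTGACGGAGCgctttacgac
The match begins 47 bases before the start of Psmb5 and 9 bases before that of Psmb6. Of the 39 genes, 32 were matched to a promoter and Psma8, Psmb1, Psmb2, Psmb7, Psmc3, Psmd3 and Psmg2 were not. The motif was found in 6 of the 32, or 18.8%, beside 12.5% of 27025 promoters of all genes. The other 4 were Psmc6, Psmd9, Psmd12 and Psme4, and none of these was called. A match describes letters in this window and not binding.

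The other beta subunits, which shape the ring without an active site, were not called (Psmb1, Psmb2, Psmb3 and Psmb4). Their log2 changes lay between -0.12 for Psmb4 and 0.12 for Psmb3, and quantile normalization turned Psmb1, Psmb2 and Psmb3 below 0. Psmb4 measured 102, 118 and 119 FPKM at 3 days and 99.4, 109.8 and 101 FPKM at 7 days, and Psmb3 51.1, 72.5 and 66.3 FPKM at 3 days and 56.5, 71.5 and 78.7 FPKM at 7 days, with the times overlapping in both. Quantile normalization gave Psmb4 a limma adjusted p of 0.0286.

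In the alpha ring, which gates the entry to the barrel, 1 of 6 subunits was called. Psma4 measured 98.7, 109 and 114 FPKM at 3 days and 137, 129.8 and 167 FPKM at 7 days, and rose with a log2 change of 0.42 ± 0.12 (SE; limma adjusted p = 0.0324), at mm10 chromosome 9, 54950798 to 54958641. Its times did not overlap, but the call was a narrow one: the limma adjusted p was 0.237 with quantile normalization, 0.051 with libraries centred on the median gene, 0.0744 with 3-day replicate 1 left out, 0.0655 with 3-day replicate 2 left out, 0.0532 with 3-day replicate 3 left out, 0.0658 with 7-day replicate 1 left out and 0.0964 with 7-day replicate 3 left out. Psma1 measured 93.1, 125 and 128 FPKM at 3 days and 161, 137 and 176 FPKM at 7 days, also with no overlap, and its log2 change of 0.46 ± 0.16 (SE; limma adjusted p = 0.0518) missed the threshold. Its limma adjusted p was 0.0494 with a pseudocount of 0.1 and 0.0461 in the authors' filtered table. It was 0.226 with quantile normalization, where the log2 change was 0.27, and up to 0.157 (without 7-day replicate 3) with single libraries left out. Psma5, with the lowest log2 change of the ring, measured 109.6, 128 and 142 FPKM at 3 days and 106, 109 and 122 FPKM at 7 days (log2 change -0.16 ± 0.12, SE; limma adjusted p = 0.308), and its limma adjusted p was 0.0279 with quantile normalization. Psma2, Psma6 and Psma7 had log2 changes of -0.05, -0.06 and 0.09, and were not called; quantile normalization turned Psma7 to -0.13.

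Psma8, the alpha subunit known from the proteasome of the testis, was listed at low levels. Its values were 2.51, 0.905 and 1.44 FPKM at 3 days and 3.70, 2.59 and 3.55 FPKM at 7 days, at most 2.48 for each 100 FPKM of Psma7, the subunit whose place it can take. It rose with a log2 change of 0.75 ± 0.25 (SE; limma adjusted p = 0.0498), and the times did not overlap (mm10 chromosome 18, 14706140 to 14762547). The limma adjusted p was 0.0527 with a pseudocount of 0.1, 0.051 among genes with a mean of at least 1 FPKM, 0.0719 with libraries centred on the median gene, 0.0509 with every row kept, 0.119 with 3-day replicate 2 left out, 0.119 with 3-day replicate 3 left out, 0.136 with 7-day replicate 1 left out, 0.0713 with 7-day replicate 2 left out and 0.131 with 7-day replicate 3 left out.

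Psmb10, the interferon-inducible active subunit that takes the place of Psmb7 in the immunoproteasome, was lower at 7 days. It measured 16.7, 19.6 and 22.0 FPKM at 3 days and 11.8, 13.9 and 14.9 FPKM at 7 days, with every 7-day library below every 3-day library. Its log2 change was -0.49 ± 0.14 (SE; limma adjusted p = 0.0299), a mean level at 7 days 0.70-fold that at 3 days (mm10 chromosome 8, 105935334 to 105938427). The limma adjusted p was 0.0724 with 3-day replicate 2 left out, 0.0916 with 3-day replicate 3 left out, 0.0959 with 7-day replicate 1 left out and 0.073 with 7-day replicate 2 left out. For each 100 FPKM of Psmb7 the Psmb10 level was 6.13, 7.85 and 7.61 at 3 days and 4.92, 5.26 and 6.37 at 7 days (exact two-sided permutation p = 0.2 with n = 3 and 3, where the smallest possible p is 0.1), and here the times overlapped. The Psmb7 value in this ratio is uncertain, since the locus given for Psmb7 also holds Nek6. Of 13 tested genes on a list of interferon-response genes, 12 were lower and 0 higher, beside 20.3% lower and 18.8% higher among all genes tested. Its median log2 change was -1.66 (-0.04 over all genes), with sums from 764 to 1028 FPKM at 3 days and from 317 to 334 FPKM at 7 days. Irf1, a factor that interferon gamma induces, was the member of that list not called, at 0.03 in log2 units (limma adjusted p = 0.871).

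The PA28 subunits, which interferon is also known to induce, were not called. Psme1 had the highest listed level of all 39 genes, with 457, 419 and 459.6 FPKM at 3 days and 477, 444 and 461 FPKM at 7 days. Its times overlapped, with a log2 change of 0.05 ± 0.11 (SE; limma adjusted p = 0.741) that turned to -0.19 with quantile normalization and -0.0020 with centring. Psme2, its partner in the ring, measured 94.5, 107 and 129 FPKM at 3 days and 114, 135 and 159 FPKM at 7 days (log2 change 0.30 ± 0.16, SE; limma adjusted p = 0.172), also with overlap. The ratio of Psme1 to Psme2 was 4.84, 3.93 and 3.55 at 3 days and 4.17, 3.30 and 2.90 at 7 days. Psme2 shares 59.3% of its 50-base stretches with other genes, mainly its copy Psme2b, and Psme1 shares 14.1%, so both values are uncertain. The locus given for Psme1 spans only 0.7 kb, where the gene spans 3.4 kb in GENCODE M21. The level of Psme1 beside other genes, Psme2 included, is uncertain for that reason as well. The Psme1 promoter is shown because it holds a short motif of interferon regulatory factors (the letters AAANNGAAA, both strands, the same window), in capitals, 9 bases after its start.
Psme1, chr14:55578493-55578521, minus strand: gcgggaagggAAAGCGAAAgcacagctcg
These letters were found in 6 of the 32 promoters, or 18.8% (Psmb3, Psmd4, Psmd9, Psmd11, Psme1 and Psmg4), beside 10.7% of all promoters. Psme4 encodes PA200, a nuclear cap that works without ATP. It measured 61.3, 44.9 and 43.3 FPKM at 3 days and 40.9, 37.6 and 38.2 FPKM at 7 days, with each 7-day library below each 3-day library, and was not called (log2 change -0.33 ± 0.14, SE; limma adjusted p = 0.0992). With quantile normalization its limma adjusted p was 0.0243. Psmf1 encodes PI31, known as an inhibitor of the core particle in the test tube and as an adaptor for its transport. It measured 4.07, 5.37 and 4.997 FPKM at 3 days and 5.46, 5.75 and 6.20 FPKM at 7 days, with no overlap, and was not called (log2 change 0.23 ± 0.14, SE; limma adjusted p = 0.231; adjusted p = 0.0471 with quantile normalization).

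**Figure D3:**
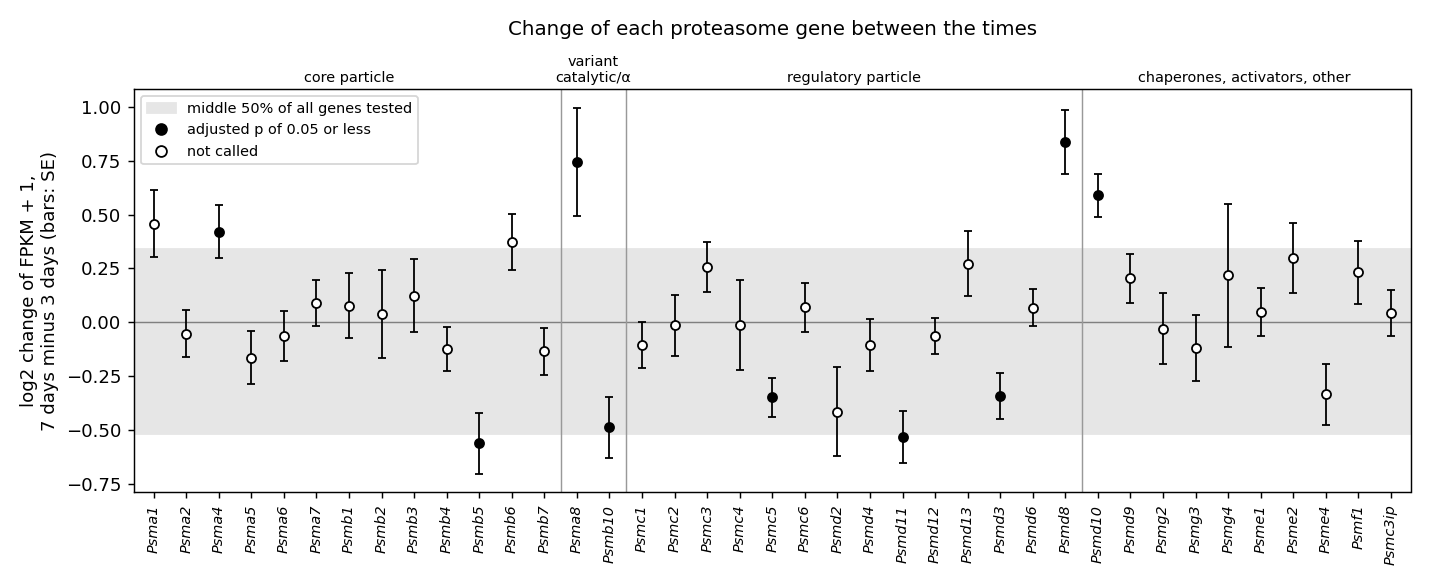
Log2 change of FPKM + 1 from 3 to 7 days for each gene (vertical axis; bars show the SE of the limma fit), grouped by role, with filled circles for the 9 called genes. The grey band holds the middle 50% of all genes tested, from -0.52 to 0.34; Psmd8, Psma8, Psmd10, Psma1, Psma4 and Psmb6 lie above it and Psmb5 and Psmd11 below it.

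In the lid of the regulatory particle, 1 of 6 subunits was higher at 7 days (Psmd8) and 2 were lower (Psmd11 and Psmd3). Psmd8, the lid subunit Rpn12, measured 73.6, 93.0 and 95.9 FPKM at 3 days and 135, 181 and 156 FPKM at 7 days. The lowest 7-day library was above the highest 3-day library, and the mean rose 1.80-fold, with a log2 change of 0.84 ± 0.15 (SE; limma adjusted p = 0.00526), at mm10 chromosome 7, 29173972 to 29180737. Psmd11, the lid subunit Rpn6, whose supply is known to limit assembly of the capped proteasome in some stem cells, measured 46.4, 38.8 and 51.3 FPKM at 3 days and 29.2, 31.9 and 31.8 FPKM at 7 days. It fell with a log2 change of -0.53 ± 0.12 (SE; limma adjusted p = 0.0126) and no overlap (mm10 chromosome 11, 80428562 to 80472763). Psmd3, the lid subunit Rpn3, measured 17.2, 17.2 and 19.4 FPKM at 3 days and 13.0, 14.0 and 14.8 FPKM at 7 days and fell with a log2 change of -0.34 ± 0.11 (SE; limma adjusted p = 0.0384), again with no overlap (mm10 chromosome 11, 98685379 to 98696311). The limma adjusted p of Psmd3 was 0.0518 with 3-day replicate 1 left out, 0.108 with 3-day replicate 3 left out, 0.122 with 7-day replicate 1 left out, 0.0963 with 7-day replicate 2 left out and 0.0653 with 7-day replicate 3 left out, and its q-value in the authors' deposited table is 0.0585. The other 3 lid subunits, Psmd6, Psmd12 and Psmd13, were not called, with log2 changes of 0.07, -0.06 and 0.27. With quantile normalization they were -0.14, -0.29 and 0.04, and that of Psmd12 had a limma adjusted p of 0.0343. Psmd6 had the smallest coefficient of variation of all 39 genes at 3 days, 1.67%, with 89.7, 90.2 and 92.5 FPKM at 3 days and 95.8, 99.3 and 90.8 FPKM at 7 days. The level of Psmd8 was 1.58, 2.40 and 1.87 at 3 days and 4.62, 5.67 and 4.90 at 7 days times that of Psmd11, a pair picked after their values were seen. Psmd11 shares 18.9% of its 50-base stretches with other genes and Psmd8 and Psmd3 share none, although the gene Ggn lies within the locus that the table gives for Psmd8.

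In the base, 1 of 8 subunits was called. Psmc5, the ATPase Rpt6, measured 89.0, 87.6 and 93.0 FPKM at 3 days and 73.6, 72.5 and 65.3 FPKM at 7 days and fell with a log2 change of -0.35 ± 0.09 (SE; limma adjusted p = 0.0211), with no overlap between the times (mm10 chromosome 11, 106216919 to 106263276). Its limma adjusted p was 0.0578 with 3-day replicate 3 left out, 0.0547 with 7-day replicate 2 left out and 0.0795 with 7-day replicate 3 left out. The locus given for Psmc5 spans 46.4 kb and also holds Ddx42, Ftsj3 and Smarcd2, and in the authors' deposited table the q-value of Psmc5 is 0.323. Psmc3, the ATPase Rpt5, measured 84.9, 78.0 and 86.7 FPKM at 3 days and 90.6, 94.6 and 115 FPKM at 7 days, with no overlap and no call (log2 change 0.26 ± 0.12, SE; limma adjusted p = 0.114). The other 4 ATPases, Psmc1, Psmc2, Psmc4 and Psmc6, had log2 changes between -0.11 and 0.07, and were not called. With quantile normalization Psmc1 was at -0.34 (limma adjusted p = 0.0449), Psmc2 and Psmc4 were both at -0.24 and Psmc6 was at -0.13. Psmd4, the ubiquitin receptor Rpn10, measured 137, 104 and 116 FPKM at 3 days and 107, 108 and 114 FPKM at 7 days (log2 change -0.10 ± 0.12, SE; limma adjusted p = 0.507). Psmd2, the large base subunit Rpn1, was listed at 0.241, 0.769 and 0.254 FPKM at 3 days and 0, 0 and 0.163 FPKM at 7 days, the lowest listed level of all 39 genes. Rpn1 is known as an essential subunit, and an exact 0 in a file without read counts can be a failed estimate, so these values may not show low expression. Of its 50-base stretches 26.4% occur in other genes, mainly Gm5422, and it was not called (log2 change -0.41 ± 0.21, SE; limma adjusted p = 0.144). On so low a level the change depends on the pseudocount, and with 0.1 in place of 1 it was -1.77 (limma adjusted p = 0.0816). The mean level of the base relative to the lid was 1.20, 1.25 and 1.13 at 3 days and 1.008, 0.952 and 1.02 at 7 days, with no overlap. Without Psmd8, again a choice made after seeing the values, it was 1.21, 1.33 and 1.17 at 3 days and 1.16, 1.21 and 1.21 at 7 days, and the times overlapped.

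**Figure D4:**
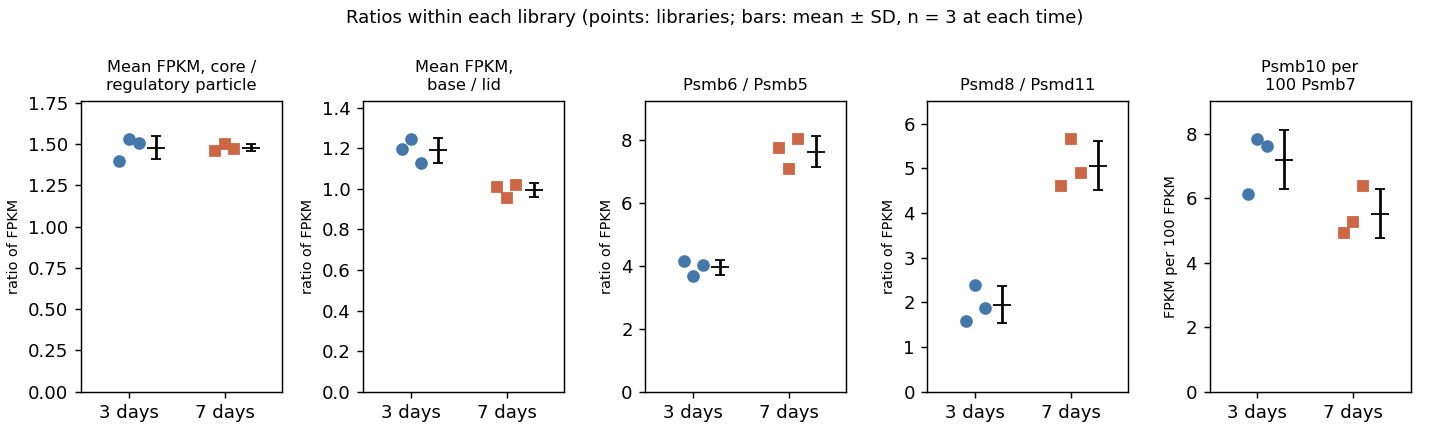
Ratios of FPKM within each library (vertical axes, from 0) at 3 days (circles) and 7 days (squares), with the mean and SD of 3 libraries beside them. The core to regulatory ratio is 1.48 at both times, the base to lid ratio goes from 1.19 to 0.993, Psmb6 over Psmb5 from 3.95 to 7.63, Psmd8 over Psmd11 from 1.95 to 5.06, and Psmb10 per 100 FPKM of Psmb7 from 7.20 to 5.52.

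Of the chaperones that build the regulatory base, 1 of 2 was higher at 7 days. Psmd10, known as gankyrin, which holds the ATPase Psmc4 during assembly and is also known to promote the breakdown of p53, measured 22.9, 22.5 and 25.7 FPKM at 3 days and 34.9, 34.7 and 38.9 FPKM at 7 days. The times lay apart, and Psmd10 rose 1.53-fold, with a log2 change of 0.59 ± 0.10 (SE; limma adjusted p = 0.00436), at mm10 chromosome X, 140948245 to 140956691. Psmd9, the chaperone p27, measured 11.4, 10.4 and 9.86 FPKM at 3 days and 12.2, 13.1 and 11.6 FPKM at 7 days, with no overlap and no call (log2 change 0.20 ± 0.11, SE; limma adjusted p = 0.183). The chaperones that build the alpha ring were not called. Psmg2 measured 3.45, 4.67 and 3.83 FPKM at 3 days and 3.82, 4.44 and 3.38 FPKM at 7 days (log2 change -0.03; limma adjusted p = 0.899). Psmg3 had 6.21, 5.56 and 4.63 FPKM at 3 days and 5.31, 4.39 and 5.14 FPKM at 7 days (-0.12; 0.553), and quantile normalization turned both above 0, to 0.25 and 0.09. Psmg4 had 22.0, 34.2 and 56.2 FPKM at 3 days and 29.96, 47.5 and 47.4 FPKM at 7 days (0.22; 0.614), the largest coefficient of variation of the chaperones at 3 days (46.3%). Its locus as given spans 182 kb, and the gene spans 15.2 kb in the GENCODE M21 annotation. Psmc3ip, the recombination factor, measured 10.8, 12.4 and 12.2 FPKM at 3 days and 12.01, 12.6 and 11.9 FPKM at 7 days and was not called (log2 change 0.04 ± 0.11, SE; limma adjusted p = 0.766; -0.0082 with centring).

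Of 31 other genes of the pathway, 22 were tested, of which 4 were higher and 1 was lower, or 22.7% called, beside 39.1% of all genes tested. Their median log2 change was 0.05, beside -0.04 for all genes and 0.20 for genes with a mean of at least 10 FPKM. Nfe2l2, which drives antioxidant genes and shares the response element shown above, measured 64.5, 74.0 and 67.8 FPKM at 3 days and 145, 146 and 129 FPKM at 7 days and rose with a log2 change of 1.02 ± 0.10 (SE; limma adjusted p = 0.000683). Nfe2l1, the factor known to restore proteasome genes, measured 35.9, 27.4 and 31.1 FPKM at 3 days and 39.8, 32.5 and 38.7 FPKM at 7 days; the times overlapped and it was not called (log2 change 0.23 ± 0.13, SE; limma adjusted p = 0.192). Ngly1, which removes sugars from Nfe2l1 as part of its activation, measured 15.04, 14.7 and 14.6 FPKM at 3 days and 19.7, 18.7 and 17.4 FPKM at 7 days and rose (log2 change 0.31 ± 0.10, SE; limma adjusted p = 0.041). This call was lost with quantile normalization (limma adjusted p = 0.110), with centring (0.0859) and with any single library left out, where adjusted p ran from 0.0584 without 3-day replicate 1 to 0.134 without 7-day replicate 1. Zfand2a, known to bind the proteasome under arsenite stress, measured 19.0, 15.5 and 17.5 FPKM at 3 days and 31.2, 29.7 and 29.3 FPKM at 7 days and rose with a log2 change of 0.76 ± 0.10 (SE; limma adjusted p = 0.00203). Rad23b, a shuttle that brings ubiquitinated proteins to the proteasome, measured 44.9, 36.7 and 39.7 FPKM at 3 days and 52.3, 52.7 and 54.6 FPKM at 7 days and rose (log2 change 0.39 ± 0.10, SE; limma adjusted p = 0.02). Its limma adjusted p was 0.225 with quantile normalization, 0.0552 with 3-day replicate 3 left out, and 0.0568, 0.06001 and 0.0693 with 7-day replicate 1, 2 or 3 left out. Adrm1, the ubiquitin receptor Rpn13 of the base, measured 34.8, 33.7 and 41.6 FPKM at 3 days and 26.7, 25.5 and 25.7 FPKM at 7 days and fell with a log2 change of -0.48 ± 0.11 (SE; limma adjusted p = 0.0124). Pomp, the chaperone that matures the core, had 100.2, 94.5 and 107 FPKM at 3 days and 118, 122 and 115 FPKM at 7 days, with no overlap and no call (log2 change 0.24 ± 0.09, SE; limma adjusted p = 0.0718). Usp14, a ubiquitin-removing enzyme bound to the base, had 50.3, 45.7 and 44.2 FPKM at 3 days and 38.9, 43.2 and 38.5 FPKM at 7 days, likewise with no overlap and no call (log2 change -0.21 ± 0.10, SE; limma adjusted p = 0.118). With quantile normalization Usp14 was lower, with a log2 change of -0.44 (limma adjusted p = 0.0126).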

How the data were processed

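The libraries were made with the ScriptSeq v2 kit from RiboTag precipitates, per the labels' protocols. TopHat2 2.0.12, Cufflinks 2.2, Cuffdiff 2.2.1 and build mm10 are named in the submitters' processing notes, with no role or order. The authors deposited FPKM values per gene and library and a mean FPKM per time, per the file headers; the scaling between libraries is not given in the sources used here. The authors also deposited a log2 fold change, a test score and, for each gene, a p-value with its q-value, per the file headers.

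Of 13960 rows, 918 were set aside before any test: a test status other than OK, library values that miss the authors' mean by over 1%, a 0 beside 100 FPKM or more, or a repeated symbol. None of the 39 genes was among them. The other 13042 genes were transformed as log2(FPKM + 1) and fitted with limma 3.58.1 (trend prior, R 4.3.3), 7 against 3 days with a two-sided test, and p-values were Benjamini-Hochberg adjusted over all genes; no filter on low values was used. With 3 against 3 libraries an exact test cannot go below p = 0.1. The script was tested on simulated data. Summaries used Python 3.11.15, pandas 2.3.3 and scipy 1.17.1, and figures matplotlib 3.10.9.

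The genes, role groups, lists and the rule for the genes named were chosen with earlier results of these data known. The rule names the active subunits, caps and chaperones, the extremes of each role group, up to 8 called genes in each direction, and of the pathway list up to 4 called genes in each direction plus Nfe2l1, Pomp, Adrm1 and Usp14. Loci (mm10) are those in the deposited table. Shared 50-base stretches were counted in GENCODE M21 transcripts, and promoters are RefSeq sequence of GRCm38.p6.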

Additional observations from a re-analysis of the deposited data

How the results depend on the processing

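Of the proteasome genes, 4 were higher and 5 lower; the cause of each change was not tested. The number higher was 2 with centring on the median gene and 7 with the replicate block; the number lower was 11 with quantile normalization and 3 by the authors' deposited q-value. Leaving out single libraries gave 2 to 3 higher and 1 to 4 lower. For the core, the number higher was 2 with a pseudocount of 0.1, with genes at a mean of at least 1 FPKM and by the authors' q-value, 3 with the replicate block and in the authors' filtered table, and 0 with quantile normalization and with centring; the number lower was 4 with quantile normalization. Single libraries left out gave the core 0 to 1 higher and 0 to 1 lower. In the regulatory particle, the number lower was 5 with quantile normalization, 1 by the authors' q-value and 1 to 3 with single libraries left out. Medians with quantile normalization were -0.141 for all proteasome genes, -0.159 for the core, -0.241 for the regulatory particle and 0.051 for all genes tested. The core's median ran from -0.125 to 0.119 with single libraries left out.

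Log2 changes near 0 changed sign in genes that were called neither way. With quantile normalization they were -0.131 for Psma7, -0.159 for Psmb1, -0.151 for Psmb2, -0.117 for Psmb3, -0.131 for Psmc6, -0.141 for Psmd6, -0.192 for Psme1, 0.248 for Psmg2 and 0.0862 for Psmg3. With centring they were -0.0115 for Psmb2, -0.00818 for Psmc3ip and -0.00203 for Psme1. With single libraries left out the ranges were -0.125 to 0.00368 for Psma2, -0.141 to 0.00099 for Psma6, -0.0427 to 0.198 for Psmb1, -0.192 to 0.193 for Psmb2, -0.0216 to 0.257 for Psmb3, -0.168 to 0.0699 for Psmc2, -0.0157 to 0.0783 for Psmc3ip, -0.242 to 0.191 for Psmc4, -0.00157 to 0.153 for Psmc6, -0.196 to 0.00417 for Psmd4, -0.109 to 0.0683 for Psmg2 and -0.104 to 0.554 for Psmg4. No called gene changed sign under any alternative run. Psmd2 falls below the filter of 1 FPKM and has no value there.

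Replicate numbers are shared by the times in the labels. Deviations of same-numbered libraries correlated with r = 0.115, 0.0096 and 0.0105, and 3-day replicate 2 correlated best with 7-day replicate 3 (0.0476), so the numbers were not taken to pair the libraries. The 3 calls gained with the replicate block were Psma1, Psmb6 and Psme2 (limma adjusted p = 0.0491, 0.0387 and 0.0401), and Ngly1 of the pathway list lost its call (0.0608). FPKM keeps no read counts, so the precision of low genes such as Psmd2 and Psma8 is unknown.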

Other observations

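Psmd2, listed below 1 FPKM in all 6 libraries, and Psmd3, at a mean of 17.9 FPKM at 3 days, are subunits of a particle whose other 12 tested members had 3-day means of 45.5 FPKM or more. For 21 of the 39 genes, none of the 50-base stretches of the longest coding transcript occurs in transcripts of another gene, and for 13 the share is 10% or more. The share was 31.5% for Psma4, 55.4% for Psma5, 55.8% for Psmb3, 28.1% for Psmb7 (all with its neighbour Nek6), 17.6% for Psmc1, 27.1% for Psmc3ip (all with its neighbour Mlx), 15.8% for Psmd13 and 22.7% for Psmg3. The loci of 8 genes hold another coding gene: Psma4, Psmb7, Psmc3ip, Psmc5, Psmd8, Psmd13, Psmg3 and Psmg4. The locus that the table gives for Psme1 spans 0.7 kb, where the gene spans 3.4 kb in GENCODE M21. By the authors' deposited q-value, 8 of the 39 genes pass 0.05. They include 7 of the 9 called here; Psmb6 passes by q-value alone, and Psmc5 and Psmd3 pass here alone.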
